A study of Mus musculus with 12 samples.

Results

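The genes examined here encode the machinery that releases neurotransmitter from synaptic vesicles, and family relatives in other membrane traffic, such as Stx18. They are the synaptotagmins, synapsins, vesicle-associated membrane proteins (Vamp), syntaxins (Stx), complexins, Sv2 proteins and Rims proteins, chosen by gene symbol, together with 14 named genes such as Snap25, Syp, Nsf, Bsn and Rab3a. The symbols matched 66 of the 43280 rows of the count table, and 62 of these held at least 10 counts over the 12 libraries and were taken as the release genes. The 4 others were Syt17 with 9 counts, Syt8 with 4, Cplx4 with 2 and Stx19 with 1. The rule itself uses symbols and summed counts, with no comparison of the groups.

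Each library came from the hypothalamus of 1 C57/Bl6 mouse pup at postnatal day 6, with 6 pups in the Control group and 6 in the group given modified maternal separation (MMS). MMS combined short daily separations from the dam with repeated handling that disturbed the pup's posture, during the first postnatal week. The study used male pups and divided each litter between the groups, and tissue was taken right after the last session. The labels do not tie libraries to litters, so pups of 1 litter may have been compared across groups, and p-values rest on the spread between these libraries alone.

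Release follows a fixed cycle. A SNARE protein on the vesicle (synaptobrevin, encoded by Vamp genes) pairs with SNAREs on the plasma membrane (syntaxin and SNAP-25), synaptotagmin senses the calcium that enters at a spike, complexin clamps and then promotes fusion, and Rims, Unc13 and the large scaffolds Bsn and Pclo hold and prime vesicles at the active zone. After fusion the ATPase Nsf and its adaptors Napa and Napb take the SNARE complex apart. Hypothalamic neurons use this machinery for glutamate and GABA and, with partly different synaptotagmins, for peptide-filled dense core vesicles, and synapses are still forming at this age.

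No release gene passed the test between MMS and Control once p-values were adjusted over all genes tested. Of the 62 genes, 56 passed the filter on low counts and were tested with edgeR's quasi-likelihood test, with Benjamini-Hochberg adjustment over 13104 genes, and their adjusted p-values lay between 0.543 and 1. Over all 13104 genes 0 passed at 0.05, which is 0% of those tested, while DESeq2 called 7 genes and 0 release genes. At an unadjusted p under 0.05 there were 5 release genes with a higher level in MMS, Stx18, Cplx2, Rims3, Vamp1 and Cplx1, and 0 with a lower level. Among all genes tested 4.68% were higher and 4.4% lower at that threshold. The 5 genes made 8.93% of the release genes tested, close to the 9.08% of all genes for both directions together, but with every one on the higher side.

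The differences were small. Log2 fold changes of MMS over Control ran from -0.38 (Syt6) to 0.47 (Cplx1), with 34 positive and 22 negative and a median of 0.050 against 0.00091 for all genes tested. The standard error had a median of 0.13 and was under 0.2 for 47 of the 56 genes. In 0 of the 56 genes did the levels of the MMS libraries lie wholly above or below those of the Control libraries, against 0.389% of all genes tested. The release genes together held between 0.857% and 0.978% of a Control library's counts, with a median of 0.962%, and between 0.934% and 1.09% of an MMS library's, with a median of 0.985%. These ranges overlapped, and the means differed by 0.055 percentage points.

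**Figure D1:**
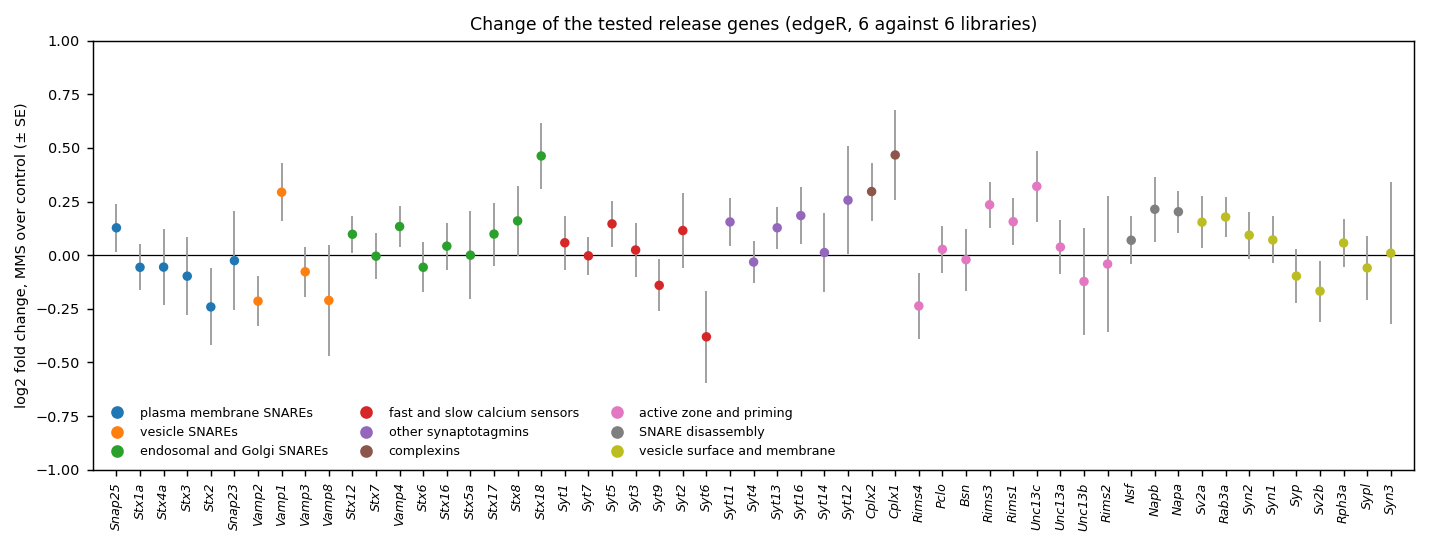
Log2 fold change of MMS over Control for the tested release genes except 1, grouped by role and coloured by it, from the edgeR fit of 6 against 6 libraries; the lines show plus and minus 1 standard error. The points lie between -0.38 and 0.47, and both tested complexins, Cplx2 and Cplx1, are above 0.

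The libraries held 3218777 to 6560620 counts. On the first principal component, with 30.4% of the variance, MMS 2 scored 57.8 and MMS 4 scored 46.3, while the other 10 libraries lay between -14.4 and -3.04. Marker genes moved with these libraries. The 11 neuronal markers, all tested, summed to 9072 CPM (counts relative to a scaled library total) in MMS 2 and 9412 in MMS 4 and to 11305 or more in the other 10, so that Control ran from 11605 to 12979 and MMS from 9072 to 12823. This sum is dominated by abundant genes such as Tubb3 (log2 fold change -0.49) and Uchl1 (-0.24), and over the 11 genes 6 were positive and 5 negative with a median of 0.0011. The 10 ependymal cilia markers summed to 15.04 CPM in MMS 2 and 37.1 in MMS 4 and to 93.4 or more elsewhere, and their median log2 fold change was -0.76, or -0.26 without the pair. Markers of other cells overlapped between the groups, with 1760 to 2083 CPM in Control and 1888 to 2018 in MMS for astrocytes, 816 to 1184 and 901 to 1208 for oligodendrocytes, and 25.8 to 61.1 and 34.4 to 65.0 for telencephalon. The 19 hypothalamic markers summed to 1324 to 2273 CPM in Control and 1595 to 2170 in MMS, with Agrp, Rax and Nr5a1 at 0 in at least 1 library. Pituitary markers ran from 0.23 to 23.6 CPM in Control and from 0 to 41.2 in MMS, with each of the 7 at 0 in some library, and Mog and Emx1 reached 0 too. The part of these markers in the values of release genes was not tested. In whole tissue, fewer cells of a type and less RNA per cell cannot be told apart.

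Library totals were scaled by TMM factors for these levels. Because the kit reads about 1 fragment per transcript at its 3' end, CPM can be compared between genes without a length correction. The annotation and strand handling of the counting are not known, which limits this comparison. At their 3' ends Rab3a, Stx18, Syn1, Syt6 and Unc13a overlap an exon of another gene on the opposite strand. Release genes were abundant, with a mean of at least 100 CPM for 29 of them, 10 to 100 CPM for 22 and less than 10 CPM for 11, and 20 of the 56 tested genes lay in the top 10% of all genes tested. Syt1, the calcium sensor of fast release, was highest at 887 CPM. It was followed by Vamp2, the main synaptobrevin, at 743, and by Syt11, a synaptotagmin that does not bind calcium, at 723. Sv2a, a vesicle membrane glycoprotein, had 662 CPM and Rab3a, the small GTPase of vesicles, 643. These 5 genes gave 37.6% of all counts of release genes.

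**Figure D2:**
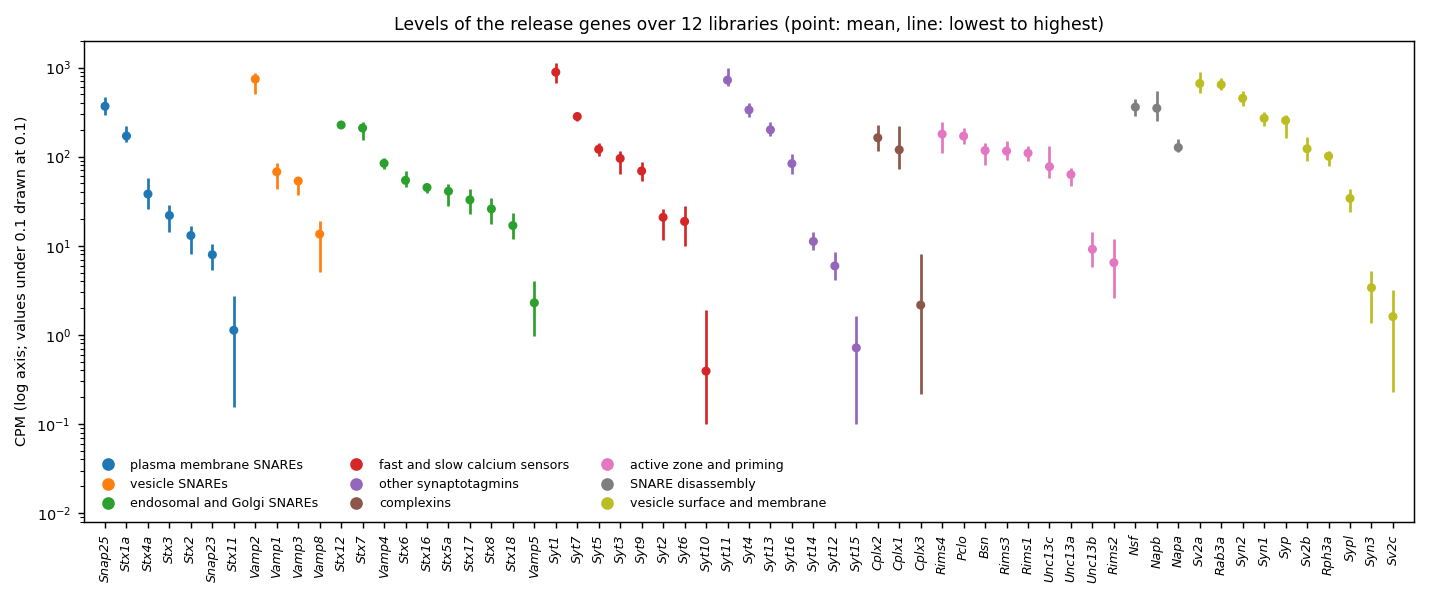
Level in CPM, on a log axis, of the release genes except 1 over all 12 libraries, ordered by level within each role; points are means and lines run from the lowest to the highest library. Each role spans a range of levels, from 887 CPM for Syt1 down to 0.39 CPM for Syt10.

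Some related genes differed widely in level. Syt1 exceeded Syt2, the sensor typical of fast hindbrain and spinal synapses, in every library, and the lowest ratio was 30.6. Snap25 exceeded its widely expressed relative Snap23 by at least 32.4 times, and Syp, a major vesicle membrane protein, exceeded Sypl by at least 5.74 times. Stx1a, a syntaxin of the synapse, had 170.6 CPM. The complexins were led by Cplx2 at 163 CPM and Cplx1 at 119, while Cplx3, known from ribbon synapses of the retina, held 132 counts in all and was not tested. The other members left out by the filter were Vamp5 with 128 counts, Sv2c with 87, Stx11 with 57, Syt15 with 38 and Syt10 with 20. The top of the order was not separated by more than its spread, since Syt1 ran from 673 to 1124 CPM over the libraries, Vamp2 from 506 to 860.2 and Syt11 from 627 to 997. The coefficient of variation over Control libraries had a median of 13.9%, and among genes of at least 100 CPM it ran from 3.13% for Stx7, an endosomal syntaxin, to 21.7% for Cplx1.

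The SNAREs of the plasma membrane showed no member under an unadjusted p of 0.05. Of the 7 tested, 2 had a positive and 5 a negative log2 fold change, with a median of -0.06. Snap25 ran from 311 to 390.3 CPM with a median of 349 in Control and from 292 to 464 with a median of 398 in MMS. In 3 MMS libraries Snap25 was above every Control library and in 1 below them all. Its log2 fold change was 0.13 (SE 0.11), or 0.03 without MMS 2 and MMS 4. Stx1a ran from 159 to 190.0 CPM with a median of 174 in Control and from 146 to 221 with a median of 158 in MMS. In 4 MMS libraries it was below every Control library and in 1, MMS 5, above them all. The log2 fold change was -0.06 (SE 0.11), or -0.14 without MMS 5 and 0.01 without MMS 2 and MMS 4. Snap23 gave -0.03 (SE 0.23), with only 436 counts, while Stx3 gave -0.10 and Stx4a -0.06. The 3 values were -0.15, 0.03 and 0.15 without MMS 2 and MMS 4. Stx2, a syntaxin also found outside neurons, had the smallest p of the members lower in this role, from 11.4 to 16.5 CPM with a median of 14.7 in Control and from 8.16 to 14.2 with a median of 12.6 in MMS. In 2 MMS libraries, MMS 2 and MMS 4, its level was below every Control library, and the log2 fold change was -0.24 (SE 0.18), or -0.08 without those libraries.

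Among the vesicle SNAREs, Vamp1 and Vamp2 had opposite signs. Both encode synaptobrevins that can drive fusion. Vamp1 ran from 43.1 to 78.3 CPM with a median of 58.7 in Control and from 60.8 to 85.2 with a median of 73.4 in MMS. Only 2 MMS libraries lay above all Control libraries, and the log2 fold change was 0.29 (SE 0.13), with an edgeR adjusted p of 0.543. It was 0.31 without MMS 2 and MMS 4. Vamp2 ran from 691 to 860.2 CPM with a median of 814 in Control and from 506 to 819 with a median of 725 in MMS. Its lowest libraries were MMS 4 at 506 and MMS 2 at 559.8 CPM, and the other 4 MMS libraries lay within the Control range. The log2 fold change of -0.21 (SE 0.12, adjusted p = 0.566 by edgeR) was -0.06 without them. Vamp3 gave -0.08 and Vamp8 -0.21, both SNAREs of general membrane traffic, and without those libraries 0.03 and 0.07.

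The SNAREs of endosomes and the Golgi held the smallest p of any release gene. Stx18, a syntaxin of the endoplasmic reticulum that takes part in retrograde transport and not in vesicle release, ran from 11.96 to 16.4 CPM with a median of 14.4 in Control and from 16.1 to 23.2 with a median of 18.6 in MMS. In 5 of 6 MMS libraries it exceeded every Control library. The log2 fold change was 0.46 (SE 0.15), with an edgeR adjusted p of 0.543. Without MMS 2 and MMS 4, its 2 highest libraries, it was 0.33. The end of Stx18 overlaps exons of Nsg1 on the opposite strand, a neuronal endosomal protein at 807 CPM with a log2 fold change of 0.27 (SE 0.13), or 0.09 without the same libraries. How strand was handled in counting is not given in the sources used here, so reads of the pair may not have been told apart. Of the 9 tested genes in this role 6 were positive, and the most abundant, Stx12 and Stx7, gave 0.10 (SE 0.09) and -0.0045 (SE 0.11), and without MMS 2 and MMS 4 0.10 and 0.12. The remaining 6, Vamp4, Stx6, Stx16, Stx5a, Stx17 and Stx8, lay between -0.06 (Stx6) and 0.16 (Stx8), which were 0.02 and -0.03 without the pair, while Stx5a was -0.14.

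The synaptotagmins showed no member under an unadjusted p of 0.05 among 13 tested. Syt1 ran from 691 to 1026 CPM with a median of 899.9 in Control and from 673 to 1124 with a median of 871 in MMS. The ranges nearly coincided, and the log2 fold change was 0.06 (SE 0.13), or 0.18 without MMS 2 and MMS 4. Syt7, the slow high-affinity calcium sensor, gave -0.0029 (SE 0.09) and Syt2 gave 0.11 (SE 0.17). The largest value in the negative direction belonged to Syt6, which ran from 12.3 to 28.3 CPM with a median of 21.1 in Control and from 9.93 to 21.8 with a median of 17.96 in MMS. MMS 2 and MMS 4 were again the lowest 2 libraries, and its log2 fold change of -0.38 (SE 0.22, adjusted p = 0.584 by edgeR) was -0.12 without them. Syt11 ran from 627 to 733 CPM with a median of 688 in Control and from 631 to 997 with a median of 701 in MMS, with MMS 2 at 997 and MMS 4 at 897. The other 4 MMS libraries lay within the Control range, and the log2 fold change was 0.16 (SE 0.11), or -0.03 without the pair. Syt4, found on dense core vesicles, gave -0.03 (SE 0.10). The other 7 tested, Syt3, Syt5, Syt9, Syt12, Syt13, Syt14 and Syt16, lay between -0.14 (Syt9) and 0.26 (Syt12, SE 0.25). Without MMS 2 and MMS 4 they lay between -0.07 (Syt9) and 0.20 (Syt3).

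Both tested complexins had an unadjusted p under 0.05, as did 9.08% of all genes tested, and neither did without MMS 2 and MMS 4. Cplx2 ran from 116 to 173 CPM with a median of 153 in Control and from 122 to 227 with a median of 185 in MMS. It exceeded every Control library in 3 MMS libraries, and the log2 fold change was 0.30 (SE 0.14, adjusted p = 0.543 by edgeR). Cplx1 ran from 71.8 to 127 CPM with a median of 102 in Control and from 91.1 to 224 with a median of 115 in MMS. Only MMS 2, at 223.5 CPM, and MMS 4, at 178, lay above the Control range. The log2 fold change was 0.47 (SE 0.21, adjusted p = 0.544 by edgeR), and it was 0.10 without MMS 2 and MMS 4, where that of Cplx2 was 0.23.

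**Figure D3:**
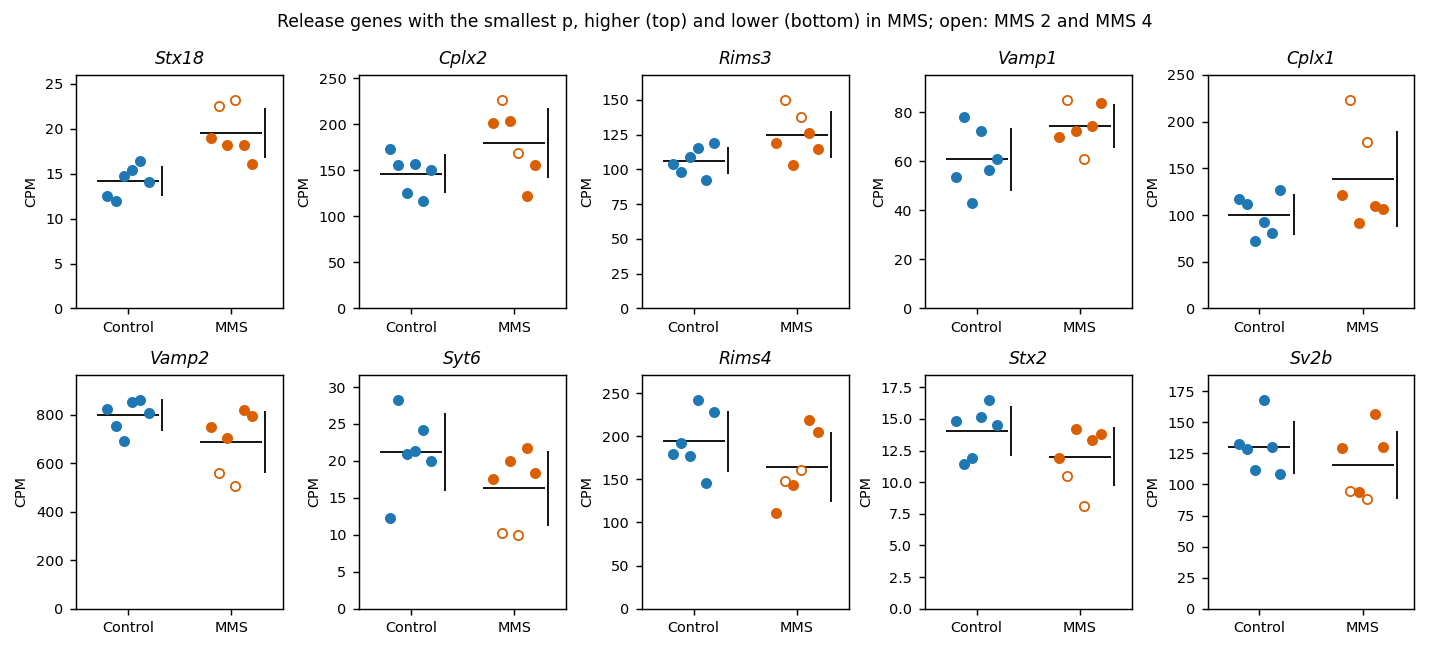
Level in CPM of 10 release genes, those of smallest p on either side of 0 (5 each), for 6 Control and 6 MMS libraries (points); horizontal lines are means, vertical lines 1 SD to each side, and open points mark MMS 2 and MMS 4. The groups overlap in all 10 genes, and the open points are the extreme MMS values for Cplx1, Stx18, Rims3, Vamp2, Syt6 and Stx2.

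At the active zone, Rims3 was the gene with the smallest p of 9 tested. Rims3 encodes a short form of the Rims scaffold and ran from 92.7 to 119 CPM with a median of 106 in Control and from 103 to 150.2 with a median of 122 in MMS. Of the MMS libraries 4 lay above the Control range, 1 of them by a small margin, and the log2 fold change was 0.23 (SE 0.11, adjusted p = 0.543 by edgeR), or 0.13 without MMS 2 and MMS 4. Its relative Rims4 had the opposite sign, from 146 to 242 CPM with a median of 185 in Control and from 111 to 219 with a median of 154 in MMS. The overlap was wide, and the difference was -0.24 on the log2 scale (SE 0.15) with an edgeR adjusted p of 0.620. Of the large scaffolds, Pclo gave 0.03 (SE 0.11) and Bsn -0.02 (SE 0.14), while the long Rims forms gave 0.16 (Rims1, SE 0.11) and -0.04 (Rims2, SE 0.32). Without MMS 2 and MMS 4 these were -0.06, 0.16, 0.18 and -0.21. The priming factors differed among themselves in level, with 77.2 CPM for Unc13c, 63.0 for Unc13a and 9.13 for Unc13b. Their log2 fold changes were 0.32 (SE 0.17), 0.04 (SE 0.13) and -0.12 (SE 0.25), and that of Unc13c was 0.0090 without MMS 2 at 108 CPM and MMS 4 at 130.01, where Unc13b gave -0.37.

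The genes of SNARE disassembly were all positive without a p under 0.05. Napa ran from 112 to 125 CPM with a median of 117 in Control and from 117 to 158 with a median of 131 in MMS. In 4 MMS libraries it exceeded every Control library, and the log2 fold change was 0.20 (SE 0.10), or 0.10 without MMS 2 and MMS 4. Napb, the brain form of the adaptor, ran from 294 to 368 CPM with a median of 318 in Control and from 251 to 543 with a median of 331 in MMS. MMS 2 at 543 and MMS 4 at 488 CPM were its highest libraries, and the log2 fold change of 0.21 (SE 0.15) was -0.08 without them. Nsf itself gave 0.07 (SE 0.11).

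Genes of the vesicle surface and membrane showed no p under 0.05 among 9 tested, with 6 positive and 3 negative. Sv2a ran from 514 to 803 CPM with a median of 593 in Control and from 583 to 896 with a median of 680.5 in MMS. Its groups overlapped over most of their range, and the log2 fold change was 0.15 (SE 0.12), or 0.23 without MMS 2 and MMS 4. Rab3a ran from 558 to 675 CPM with a median of 598 in Control and from 558 to 766 with a median of 689 in MMS. The log2 fold change was 0.18 (SE 0.09), or 0.13 without MMS 2 and MMS 4. Syp gave -0.10 (SE 0.12) with its 2 lowest libraries MMS 4 at 162 CPM and MMS 2 at 216, and Sypl gave -0.06 (SE 0.15), against 0.07 and 0.01 without the pair. Sv2b, which ran from 108 to 168 CPM with a median of 129 in Control and from 88.5 to 156.5 with a median of 112 in MMS, gave -0.17 (SE 0.14), or -0.02 without MMS 2 and MMS 4. The synapsins, which tether vesicles to each other, gave 0.07 (Syn1), 0.09 (Syn2) and 0.0095 (Syn3), and the Rab3a effector Rph3a gave 0.06. Without the pair these were 0.15, 0.16, 0.13 and -0.0041.

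**Figure D4:**
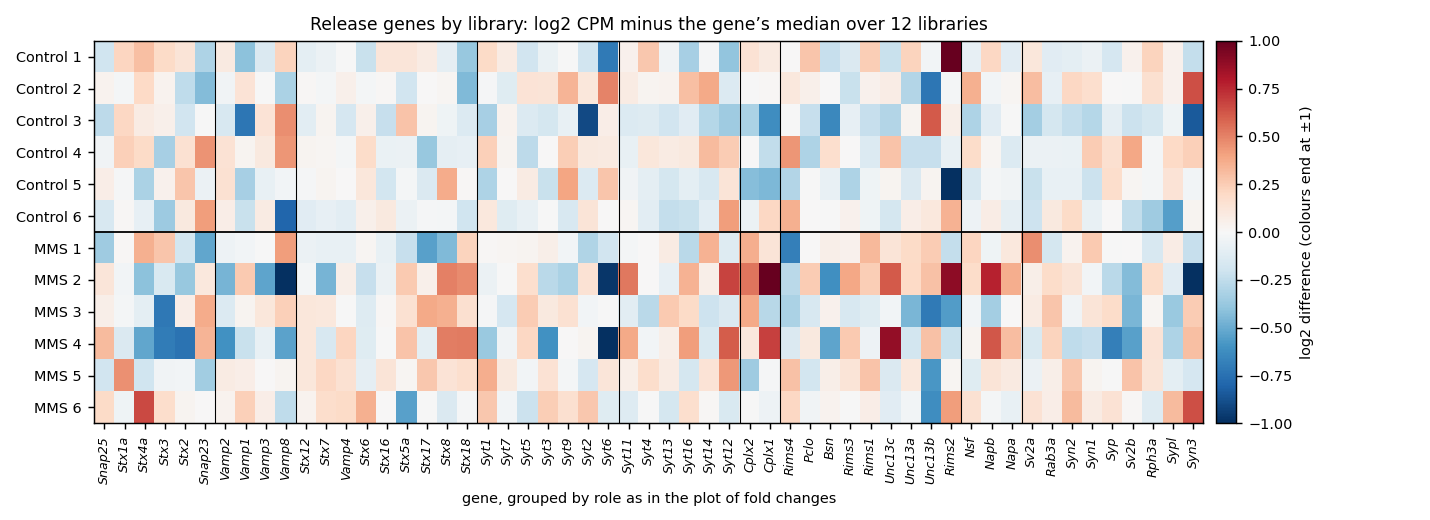
Log2 CPM of each tested release gene but 1 minus its median over the 12 libraries, in rows of libraries and columns of genes grouped by role; red is above and blue below the median, and colours end at 1 and -1. The rows of MMS 2 and MMS 4 hold the strongest colours, with median absolute deviations of 0.26 and 0.25 against 0.080 to 0.18 in the other libraries.

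MMS 2 and MMS 4 were the most distant libraries across the release genes as they were across all genes. The median absolute log2 deviation of release genes from their median was 0.26 in MMS 2 and 0.25 in MMS 4, and 0.080 to 0.18 in the others. For all genes tested it was 0.32 and 0.30, and 0.13 to 0.20 in the others. Both libraries lay outside the other 10 on the same side for 18 of 56 release genes, or 32.1%, against 29.7% of all genes tested. They were above for 11, among them Cplx1, Napb, Syt11 and Unc13c, and below for 7, among them Vamp2, Syp and Syt6. With both left out, 1 release gene had a higher level in MMS at an unadjusted p under 0.05, Vamp1, and 0 had a lower level, against 2.41% and 2.62% of 13407 genes tested. The sign of 17 of the 56 genes differed between the fits, and the median was 0.050 in both.

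**Figure D5:**
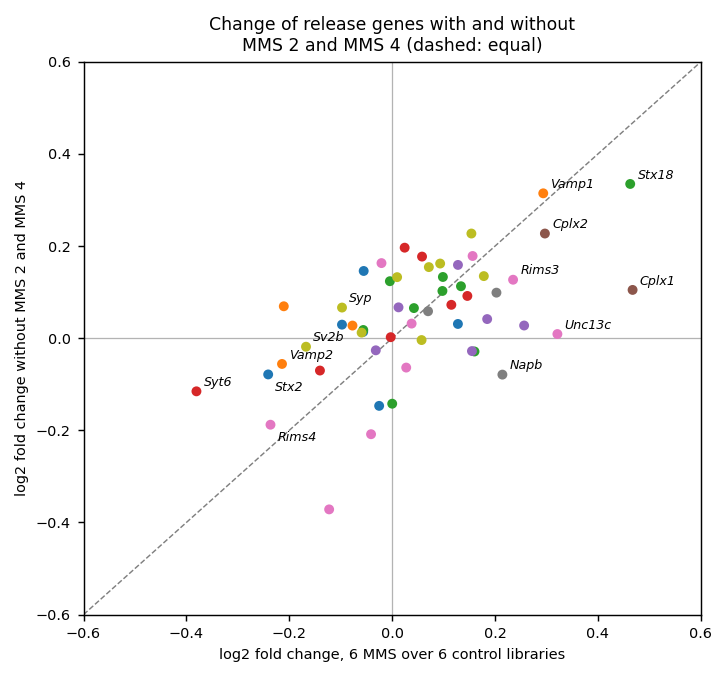
Log2 fold change of MMS over Control for each tested release gene but 1 with all 12 libraries (horizontal axis) and without MMS 2 and MMS 4 (vertical axis), in the colours of the roles; the dashed line marks equal values. Cplx1 moves from 0.47 to 0.10 and Napb from 0.21 to -0.08, while Vamp1 stays near the line at 0.29 and 0.31.

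Ratios within families were set side by side after the levels had been seen, over 5 pairs and with no test. The ratio of Vamp1 to Vamp2 counts ran from 0.062 to 0.104 with a median of 0.071 in Control and from 0.091 to 0.152 with a median of 0.104 in MMS. In 3 MMS libraries it exceeded every Control library, and the mean log2 ratio was higher by 0.54 in MMS, or by 0.39 without MMS 2 and MMS 4. The ratio of Cplx1 to Cplx2 ran from 0.571 to 0.847 in Control and from 0.448 to 1.06 in MMS, so that the MMS range enclosed that of Control. For Syt1 over Syt2, Snap25 over Snap23 and Syp over Sypl the medians were 42.0, 46.3 and 7.24 in Control and 40.5, 51.4 and 6.88 in MMS, with overlapping ranges.

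The promoters of the 5 genes with an unadjusted p under 0.05 are shown to place their sequence beside their levels. They are RefSeq windows on GRCm38.p6, the same build as mm10, from 250 bases before to 50 after a transcript start. Capitals mark a GC box (GGGCGG), a cAMP response element (TGACGTCA) or a TATA box (TATAAA) on either strand. The window of Cplx2, at a RefSeq start, lies wholly before the gene as GENCODE annotates it, which starts at chr13:54371349. That of Stx18 lies wholly inside the GENCODE gene, which starts at chr5:38038742.
Stx18, chr5:38038980-38039279, plus strand: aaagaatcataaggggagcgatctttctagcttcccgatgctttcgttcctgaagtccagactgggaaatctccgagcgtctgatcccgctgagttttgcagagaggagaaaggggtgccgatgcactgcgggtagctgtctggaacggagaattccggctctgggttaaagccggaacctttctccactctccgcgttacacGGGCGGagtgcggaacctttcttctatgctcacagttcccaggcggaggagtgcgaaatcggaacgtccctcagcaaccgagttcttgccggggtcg
Cplx2, chr13:54302306-54302605, plus strand: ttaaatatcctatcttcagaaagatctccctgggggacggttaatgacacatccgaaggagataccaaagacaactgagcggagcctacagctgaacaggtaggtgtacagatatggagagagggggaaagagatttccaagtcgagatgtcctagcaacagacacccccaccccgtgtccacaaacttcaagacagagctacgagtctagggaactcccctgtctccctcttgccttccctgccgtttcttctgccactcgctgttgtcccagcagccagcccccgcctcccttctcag
Rims3, chr4:120854549-120854848, plus strand: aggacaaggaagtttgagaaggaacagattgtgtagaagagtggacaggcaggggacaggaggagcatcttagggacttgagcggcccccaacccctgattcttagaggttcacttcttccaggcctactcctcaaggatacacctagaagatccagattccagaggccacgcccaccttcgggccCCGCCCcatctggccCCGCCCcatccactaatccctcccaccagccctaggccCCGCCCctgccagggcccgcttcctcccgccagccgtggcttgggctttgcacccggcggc
Vamp1, chr6:125215331-125215630, plus strand: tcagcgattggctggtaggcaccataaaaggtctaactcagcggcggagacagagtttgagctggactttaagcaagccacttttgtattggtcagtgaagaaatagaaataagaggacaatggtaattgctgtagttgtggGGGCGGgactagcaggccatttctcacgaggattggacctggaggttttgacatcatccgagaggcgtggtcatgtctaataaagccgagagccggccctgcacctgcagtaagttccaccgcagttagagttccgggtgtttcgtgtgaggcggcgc
Cplx1, chr5:108549978-108550277, minus strand: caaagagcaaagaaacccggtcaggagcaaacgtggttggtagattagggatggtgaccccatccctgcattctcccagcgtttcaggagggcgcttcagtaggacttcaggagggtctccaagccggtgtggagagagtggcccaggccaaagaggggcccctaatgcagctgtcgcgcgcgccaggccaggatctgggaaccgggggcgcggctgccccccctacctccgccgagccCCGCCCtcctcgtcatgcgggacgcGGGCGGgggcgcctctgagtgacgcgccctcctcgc
The 2 complexin windows differ, with 2 GC boxes, 24 CpG sites and 67.0% GC for Cplx1 and 0 GC boxes, 9 CpG sites and 53.3% GC for Cplx2. Rims3 holds 3 GC boxes, and Stx18 and Vamp1 hold 1 each. None of the 5 holds the cAMP response element or the TATA box, which says only that these letters are not in these windows.

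Over the family, 50 of the 62 release genes had an entry, with 67 windows. Their median GC content was 62.3%, against 61.3% for windows of tested genes and 52.7% for all windows in the table. A GC box lay in 67.2% of the windows, against 62.9% and 35.7%, and a TATA box in 5.97%, against 6.96% and 13.6%. The cAMP response element was found in 2 windows, those of Syn1 and Napa, or 2.985%, against 3.064% and 1.79%. The shorter core TGACG, which the full element contains, lay in 22.4% against 30.4% and 20.8%, and the E-box (CACGTG) in 14.9% against 9.785% and 7.15%.

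The other genes of the pathway listed here were SNARE regulators, further active zone scaffolds, the Rab cycle, further vesicle proteins, vesicle retrieval and dense core vesicle cargo, with 94 genes listed, 93 in the table and 85 tested. Of these 0 passed at an adjusted p of 0.05, while 6 were higher and 4 lower at an unadjusted p under 0.05, or 11.8% against 9.08% of all genes, and their median log2 fold change was 0.03. Without MMS 2 and MMS 4 there were 2 higher and 1 lower, against 2.41% and 2.62% of all genes tested in that fit. Chgb and Chga, the granins of dense core vesicles, had log2 fold changes of 0.35 (SE 0.12) and 0.30 (SE 0.12), with an edgeR adjusted p of 0.543 for both. These values were 0.21 and 0.21 without MMS 2 and MMS 4. At the other end were Ap2s1, a subunit of the clathrin adaptor, and Slc17a7, a vesicular glutamate transporter with 301 counts in all. Ap2s1 gave -0.41 (SE 0.17), with MMS 2 at 241 and MMS 4 at 237 CPM and the other 10 libraries at 405 or more. Slc17a7 gave -1.67 (SE 0.66), and the values of these genes were -0.16 and -1.52 without the pair. Slc17a7 had 16.04 CPM in Control 4 and 16.35 in Control 5. Its other Control libraries lay between 1.51 and 6.46 CPM and its MMS libraries between 0.64 and 5.49, and these ranges overlapped. Slc17a7 is also among the telencephalon markers above, and the part of telencephalic tissue in its value was not tested. Receptors on the receiving side and the channels that shape release were counted in the same way. Of 29 tested subunits of GABA-A and ionotropic glutamate receptors 2 were higher and 1 lower at that threshold, or 10.3%. Of 52 tested voltage-gated channel genes 6 were higher and 3 lower, or 17.3%, against 9.08% of all genes. Their median log2 fold changes were 0.0038 and 0.01. Leaving out MMS 2 and MMS 4 gave 0 higher and 0 lower receptor subunits and 1 higher and 1 lower channel gene. Shares of all genes in that fit were 2.41% higher and 2.62% lower. Cacnb2 gave 0.41, Cacna1e -0.35 and Kcnh3 -0.94, and without the pair 0.24, -0.31 and -0.59.

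The release genes lie on 18 chromosomes, and all 62 were found in GENCODE M21. For 5 of them, Rab3a, Stx18, Syn1, Syt6 and Unc13a, an exon of another gene lies within the last 300 bases, on the opposite strand in each case. Snap25 spans chr2:136713453-136782428, Vamp1 spans chr6:125215551-125245964, Vamp2 spans chr11:69088490-69092384 and Cplx1 spans chr5:108518554-108550024. Gene length ranged from 3895 bases for Vamp2 to 519744.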

How the data were processed

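The authors prepared 3' mRNA libraries (QuantSeq) from the hypothalamus of 12 pups, sequenced them on an Ion Proton and aligned reads to mm10. They deposited raw counts per gene, 1 column per library, with no normalization. No source used here names the counting tool, its annotation or its handling of strand. Groups came from the sample titles. Spreadsheet dates replaced symbols in 27 rows with 0.175% of counts, which were kept unnamed. Within each group every pair of libraries differed by more than sampling noise.

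From the deposited counts, edgeR 4.0.16 in R 4.3.3 compared 6 MMS with 6 Control libraries (TMM, filterByExpr with a minimum count of 10 and total of 15, robust quasi-likelihood test, two-sided, Benjamini-Hochberg over all genes tested). The standard error is the absolute log2 fold change divided by the root of F. DESeq2 1.42.0, limma 3.58.1 (voom), other filters and size factors, a replicate block and leaving out libraries were alternatives. Genes given with values were those past an adjusted p of 0.05, the 5 smallest p in each direction, the 2 most abundant tested genes of each role and set family pairs. For other pathway genes, receptors and channels they were the 2 smallest p in each direction. Nsg1 was named after its values were seen, and the remaining release genes are given briefly, except 1 member, whose own values, like those of 1 receptor subunit, are not reported here. Release genes, lists and tests were chosen with earlier results of these data known. The study's methods mention no molecular identifiers, so counts may include copies of the same molecule. A count of 0 does not show that a transcript was absent. Coordinates are 1-based.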

Additional observations from a re-analysis of the deposited data

Results flagged for a closer look

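In 72 sets of 6 values, a release gene or family ratio in 1 group, the highest and lowest library were compared with the rest by the gap to the nearest other library over the whole range. At Dixon's critical value for groups of 6, chance alone gives about 1 in 20 sets, here 3.6, and 2 were found. The criterion takes 1 library at a time, so 2 libraries apart on the same side can hide each other. MMS 2 and MMS 4 lay above the other 10 libraries for 11 of 56 release genes and below for 7. Ratio sets also share values with gene sets, so 2 against 3.6 does not show how common outlying libraries were. The 72 sets did not take in every release gene, so this count does not describe the whole family. Among genes outside them, Stx8 in Control had 30.9 CPM in Control 5, and the next was 24.2. Vamp3 in MMS had its lowest value of 37.3 CPM in MMS 2, and the next was 51.3. Stx1a in MMS had its highest value of 221 CPM in MMS 5, and the next was 162 CPM. The ratio of Syp to Sypl in Control had its highest value of 10.9 in Control 6, and the next was 7.66.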

How the results depend on the processing

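With DESeq2, limma-voom, other size factors, other count filters, the replicate block and every set of libraries left out, 0 release genes passed an adjusted p of 0.05. Over all genes, 7 passed with DESeq2, 1 with no count filter, 1 with the replicate block, 5 without MMS 2 and MMS 4 and 0 to 1 when single libraries were left out (1 without MMS 2 or MMS 4), against 0 in the fit reported. Release genes higher at an unadjusted p under 0.05 numbered 1 without MMS 2 and MMS 4 and from 1 (without Control 3, Control 5 or MMS 2) to 7 (without MMS 3 or MMS 5) when single libraries were left out, with 3 without Control 1 or MMS 4. Those lower numbered 0 to 3, with 3 without MMS 5 and 1 without Control 1 or MMS 6. The share of all genes moved too, with 7.40% higher and 6.24% lower without MMS 5, 5.33% and 4.40% without MMS 3, and 2.66% and 2.61% without MMS 2. It was 6.00% and 5.81% without MMS 6 and 2.65% and 2.70% without MMS 4, against 4.68% and 4.40% with all libraries. Without Control 1 it was 3.92% and 3.64%, without Control 3 3.52% and 3.28%, and without Control 5 4.25% and 3.51%. Without Control 3 or Control 5 the share higher fell less than the count of release genes, which was 1 against 5. The cause was not tested. With all libraries, release genes higher numbered 7 with DESeq2, 6 with DESeq2-type size factors and 4 with limma-voom. They numbered 4 with no count filter and 5 with a mean of at least 50 counts. Of all genes 5.43%, 5.07%, 4.01%, 4.84% and 5.13% were higher in these fits. Release genes lower numbered 0 in each, against 4.45%, 4.10%, 6.32%, 3.82% and 5.08% of all genes. Without MMS 2 and MMS 4 the log2 fold change took the other sign for 17 of 56 release genes, among them Stx1a (0.014), Stx7 (0.12), Syt7 (0.0021), Syt11 (-0.028), Pclo (-0.064), Napb (-0.079), Syp (0.066) and Sypl (0.012). Stx7 and Syt7 were near 0 and also changed sign with DESeq2 (0.0015 and 0.0036), DESeq2-type size factors (0.0018 and 0.0033) and no count filter (0.0057 and 0.010). Leaving out single libraries gave both signs for Stx7 (-0.046 to 0.078), Syt1 (-0.0046 to 0.14), Syt7 (-0.023 to 0.025), Syt4 (-0.064 to 0.023), Pclo (-0.024 to 0.10), Snap23 (-0.10 to 0.077), Syp (-0.16 to 0.0064), Syt2 (-0.0066 to 0.18), Unc13a (-0.0049 to 0.11) and Unc13b (-0.23 to 0.038). Libraries with the same replicate number had correlations of deviations from -0.05 to 0.12, and 2 of 6 correlated best with their own number. The numbers were therefore not taken to pair the libraries. With the block 0 release genes passed an adjusted p of 0.05, and 5 were higher and 0 lower at an unadjusted p under 0.05. Of all genes 3.78% were higher and 5.56% lower in that fit. Rims3 was not among these 5, so they were not the same genes as in the fit reported. Low counts limit the precision of genes such as Syn3 (SE 0.33) and Rims2 (SE 0.32).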
